A study of Mus musculus with 24 samples.

Results

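The cells described here are committed oligodendrocyte precursors, the cells between a dividing oligodendrocyte precursor and a newly formed oligodendrocyte. They were picked cell by cell from raw counts of unique molecular identifiers (UMIs, one per captured mRNA molecule). A cell was kept with at least 1000 UMIs, at least 500 genes and at most 20% mitochondrial UMIs. It was called a committed precursor with at least 2 UMIs of Bmp4 and Enpp6 together, at least 1 of Olig1 and Sox10 together, at most 1 of Pdgfra, and at most 1 of Mog and Mag together. This rule found 614 cells among the 103715 that passed the cell filter. Because the 7 genes of the rule chose the cells, their values are given as a description and without a test.

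Mice in which a tamoxifen-inducible Cre recombinase marks recently active cells with the tdTomato reporter of the Ai9 allele were trained to reach with a forelimb. Fos-CreER::Ai9 mice gave the motor cortex and Arc-CreER::Ai9 mice the dorsal striatum, so that region and driver line cannot be told apart. Training lasted 2 days (early) or 8 days (late), 4-hydroxytamoxifen (4-OHT) was given to all groups, control mice had 4-OHT without training, and tissue was taken 3 days after labelling. Tissue of 2 mice was pooled and each hemisphere made a droplet library of its own, contralateral and ipsilateral in trained mice, left and right in controls. Tissue was dissociated with papain before capture. Ages are not given in the sources used here. Each of the 6 combinations of region and stage had 2 pools, 12 in all, and 23 of 24 libraries were read. The dorsal striatum control replicate 1 rests on its left hemisphere alone, and the other library is not analysed here. The pool was taken as the replicate. Replicate numbers are accession order and only name a pool.

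Oligodendrocytes arise throughout life from precursors that carry the platelet-derived growth factor receptor Pdgfra and the proteoglycan Cspg4. A precursor that commits stops dividing, loses these proteins, and passes through a short stage marked by Bmp4, a secreted growth factor, by Enpp6, a membrane phosphodiesterase that acts on choline lipids, and by the receptor Gpr17. It then either matures into a myelin-forming cell, with Mog and Mag on its surface, or dies. Olig1, Olig2 and Sox10 are transcription factors of the whole lineage. In the adult brain committed precursors are rare, and Enpp6 has been used to find newly forming oligodendrocytes during motor learning in mice.

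For comparison, 6599 cells were called precursor-rule cells, with at least 2 UMIs of Pdgfra and at most 1 of Bmp4 and Enpp6 together. They also had at most 1 UMI of Mog and Mag together. A further 374 cells were called mature-rule cells, with at least 2 UMIs of Mog and Mag together. Both classes passed the same cell filter and had at least 1 UMI of Olig1 and Sox10 together. Committed precursors numbered 14 to 100 per pool and 1 to 59 per library. They had a median of 3114 UMIs and 1831.5 genes, precursor-rule cells 2339 UMIs and mature-rule cells 2985.5 UMIs. Total UMIs per library ran from 5260446 to 30470621. Below, levels are in CPM, the UMIs of a gene in the summed counts of a cell class in a pool, scaled to a total of 1000000. Comparisons of genes used sums over pools in edgeR's quasi-likelihood test with Benjamini-Hochberg adjustment, and a gene passed at an adjusted p under 0.05. Log2 changes are given with a standard error (SE), which was worked back from the test as the size of the change divided by the square root of its F statistic.

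Lineage markers that the rule did not use were present in nearly all of the cells. Of 8 lineage markers outside the rule (Olig2, Sox8, Gpr17, Neu4, Bcas1, Tcf7l2, Cnp and Cspg5), at least 3 were detected in 609 of the 614 cells (99.2%), in 91.2% of precursor-rule cells and in 58.3% of mature-rule cells. Their summed level ran from 7350 to 12021 CPM over pools. Detection of 3 such markers places the cells in the lineage and does not tell them from precursor-rule cells. Cspg5 and Olig2, unlike the other markers, were detected in a smaller share of committed precursors (23.6% and 80.6%) than of precursor-rule cells (99.0% and 84.9%). Markers of other cell types were present as well. A doublet caller marked 40 committed precursors (6.51%), and 82 (13.4%) had at least 3 markers of another type, out of 8 measured per type (7 for neuroblasts). These were neuron markers in 46 cells, astrocyte markers in 16, microglia markers in 13, mural markers in 6, endothelial and neuroblast markers in 3 each, and fibroblast markers in 2, and no cell had 3 ependymal markers. The summed neuron markers ran from 296 to 3986 CPM over pools (median 882), the astrocyte markers from 90.7 to 421 and the microglia markers from 35 to 653. No cell barcode was shared between 2 committed precursors, and 23 of their barcodes also named a passing cell of another library. The libraries fall into 2 classes by the barcodes they share, labelled A (7 libraries, 4 pools) and B (16 libraries, 8 pools) here. The labels name kit versions 2 or 3 without saying which library had which. Class A holds replicate 1 of the control and late pools of both regions.

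Promoters of 4 genes were printed to show the sequence before the start of the pair that defined the cells, Bmp4 and Enpp6, and of Fyn and Cnp, which were among the genes that differed most from precursors below. Each is the 250 bases before the RefSeq gene start in GRCm38.p6, read 5′ to 3′ on the gene's strand. Bmp4 is chr14:46390670-46390919 on the minus strand, Enpp6 chr8:46986637-46986886, Fyn chr10:39369549-39369798 and Cnp chr11:100574689-100574938, all 3 on the plus strand. The gene coordinates given below come from GENCODE, whose starts can differ: the Fyn window lies inside its GENCODE gene and the Cnp window overlaps the first bases of its gene. Capitals mark a match to ACAAAG or ACAATG on either strand, 2 core motifs of SOX factors.
Bmp4: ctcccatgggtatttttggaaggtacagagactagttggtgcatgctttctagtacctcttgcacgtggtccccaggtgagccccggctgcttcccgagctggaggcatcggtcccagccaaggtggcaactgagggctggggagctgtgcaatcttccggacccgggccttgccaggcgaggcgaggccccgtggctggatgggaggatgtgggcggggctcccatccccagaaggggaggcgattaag
Enpp6: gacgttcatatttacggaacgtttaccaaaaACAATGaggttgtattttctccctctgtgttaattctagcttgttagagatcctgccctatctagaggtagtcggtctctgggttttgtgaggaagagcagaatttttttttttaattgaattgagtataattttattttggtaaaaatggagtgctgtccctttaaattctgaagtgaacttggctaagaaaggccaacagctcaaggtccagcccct
Fyn: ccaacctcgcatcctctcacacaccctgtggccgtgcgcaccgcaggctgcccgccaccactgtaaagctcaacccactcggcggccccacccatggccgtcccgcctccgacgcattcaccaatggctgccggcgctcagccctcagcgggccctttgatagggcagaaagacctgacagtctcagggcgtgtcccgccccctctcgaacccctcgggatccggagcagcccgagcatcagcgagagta
Cnp: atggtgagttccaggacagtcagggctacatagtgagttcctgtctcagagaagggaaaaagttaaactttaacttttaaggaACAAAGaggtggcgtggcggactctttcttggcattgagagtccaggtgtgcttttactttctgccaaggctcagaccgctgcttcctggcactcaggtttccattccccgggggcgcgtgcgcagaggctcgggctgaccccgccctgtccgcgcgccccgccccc

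Enpp6 held ACAATG 219 bases before its start and Cnp held ACAAAG 167 bases before its start, and the windows of Bmp4 and Fyn held neither motif. Of 32841 RefSeq promoter windows of this length, from 27018 genes, 25.2% held at least 1 match, and 7606 of the genes had a match in at least 1 window. Of the 10 genes that the naming rule chose as higher in committed precursors, 7 had an entry, and 4 of these held a match in at least 1 window. Of the 10 chosen as lower, 7 had an entry and 3 held a match. A match describes the letters only.

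Bmp4 was detected in 546 of the 614 cells (88.9%) and Enpp6 in 503 (81.9%), with at most 15 and 25 UMIs in a cell. Over the 12 pools Bmp4 stood at 599 to 1076 CPM (median 789) and Enpp6 at 566 to 1336 (median 869). Olig1 was detected in 597 cells (97.2%) and Sox10 in 390 (63.5%). Within the limits of the rule, 35 cells (5.70%) had a UMI of Pdgfra, 51 (8.31%) of Mog and 85 (13.8%) of Mag. Enpp6 thus ranged more widely between pools than Bmp4. Both genes were found in 435 cells (70.8%), Bmp4 without Enpp6 in 111 (18.1%) and Enpp6 without Bmp4 in 68 (11.1%).

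At the edge of the rule, 131 cells had exactly 2 UMIs of Bmp4 and Enpp6 and 96.2% of them had at least 3 lineage markers outside the rule. A further 300 cells had 1 such UMI and met the other conditions, with 89% at that mark. The 37 cells with a single UMI of Olig1 and Sox10 had it in 91.9%, against 11.3% of the 106 cells with none. The limit on Pdgfra left 35 cells with 1 UMI inside and 19 with 2 outside, and that on Mog and Mag left 136 inside and 74 outside. Cells just outside the Bmp4 and Enpp6 threshold thus carried the other lineage markers nearly as often as cells just inside it, and cells without Olig1 and Sox10 rarely did.

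Committed precursors were compared with precursor-rule cells of the same 12 pools, with the pool as a block. Of 24 listed myelin genes 12 could be tested and 10 of these were higher, and of 20 listed precursor genes 19 were lower. Of 9041 genes tested, 51.2% passed, 2088 higher (23.1%) and 2545 lower (28.1%), and the median change over all genes was -0.04. The 2 classes were separated by the 7 genes of the rule, which are left out of these counts. Every other gene was measured in the same cells, so the changes show how genes sorted with the rule and are not separate evidence that the classes exist. A set with a count near these shares differs no more than genes in general.

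Fyn (chr10:39368855-39565381), a Src-family kinase that carries axonal signals to the oligodendrocyte cytoskeleton, stood at 192 to 355 (median 287) CPM in precursor-rule cells and at 2938 to 3841 (median 3418) in committed precursors, a change of 3.68 ± 0.08 (SE), adjusted p = 7.7e-29. Its level in committed precursors was within a narrow range over all 12 pools. Chn2 (chr6:54039554-54301810), a Rac-directed GTPase-activating protein, stood at 19.8 to 40.7 (median 32.2) CPM in precursor-rule cells and at 546 to 1425 (median 899.9) in committed precursors, with a change of 5.0 ± 0.11 (SE), adjusted p = 3.2e-28. Cnp (chr11:100574904-100591729), the cyclic nucleotide phosphodiesterase of uncompacted myelin whose promoter is printed above, stood at 90.0 to 294 (median 153) CPM in precursor-rule cells and at 1673 to 3587 (median 2150.4) in committed precursors, a change of 3.88 ± 0.10 (SE), adjusted p = 4.3e-26. No pool of one class overlapped the other class for any of these 3 genes.

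The other named higher genes were as follows. Epb41l2, which ties membrane proteins to spectrin and actin, rose by 4.09 ± 0.09 on the log2 scale, Mpzl1, a cell surface glycoprotein related to myelin protein zero, by 3.06 ± 0.08, and Sirt2, a tubulin deacetylase of oligodendrocytes, by 3.1 ± 0.08. Dynll2, a dynein light chain, rose by 2.67 ± 0.07 and Lims2, a focal adhesion protein, by 2.55 ± 0.07. Gpr17, which also rose, lies within Lims2 on the opposite strand. Whether counting used strand is not given in the sources used here, so the value of Lims2 is uncertain and may not be separate from that of Gpr17. The long non-coding RNA 9630013A20Rik stood at 2.87 to 19.4 (median 5.46) CPM in precursor-rule cells and at 135 to 863 (median 323) in committed precursors, a change of 5.82 ± 0.15. Being low in precursor-rule cells, with 93 UMIs in all, this RNA passed the filter through the committed precursors, which fixed its direction. It is annotated as antisense, and whether counting used strand is not given in the sources used here, so its value is uncertain.

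Among the lower genes, Cspg5 (chr9:110243783-110262576), a brain proteoglycan, stood at 1822 to 3873 (median 3150.5) CPM in precursor-rule cells and at 42.3 to 259 (median 172) in committed precursors, a change of -4.25 ± 0.11 (SE), adjusted p = 5.6e-26. Ednrb, the endothelin B receptor, stood at 468 to 1109 (median 895) CPM in precursor-rule cells and at 5.91 to 80.4 (median 33.8) in committed precursors, a change of -4.30 ± 0.13 (SE), adjusted p = 1.8e-24. Ccnd1 (chr7:144929931-144939925), the D-type cyclin that drives entry into the cell cycle, stood at 413 to 840.1 (median 684) CPM in precursor-rule cells and at 11.8 to 61.5 (median 24.9) in committed precursors, a change of -4.46 ± 0.14 (SE), adjusted p = 6.8e-24. For each of these genes the highest pool of committed precursors was below the lowest pool of precursors. Ptprz1, a receptor phosphatase, stood at 1660.3 to 4598 (median 3922) CPM in precursor-rule cells and at 289.6 to 1115 (median 921) in committed precursors, with a change of -2.10 ± 0.07 (SE), adjusted p = 1.3e-23. It kept a much higher level than Cspg5, Ednrb and Ccnd1, and again the pools did not overlap. Ptn, the secreted ligand of Ptprz1, fell by 2.46 on the log2 scale. The other named genes that fell were the adhesion molecule Chl1 (-4.07), the receptor kinase inhibitor Spry1 (-3.48), the cysteine dioxygenase Cdo1 (-3.53), the secreted Olfm2 (-3.24) and the retinoid carrier Rlbp1 (-3.79).

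**Figure D1:**
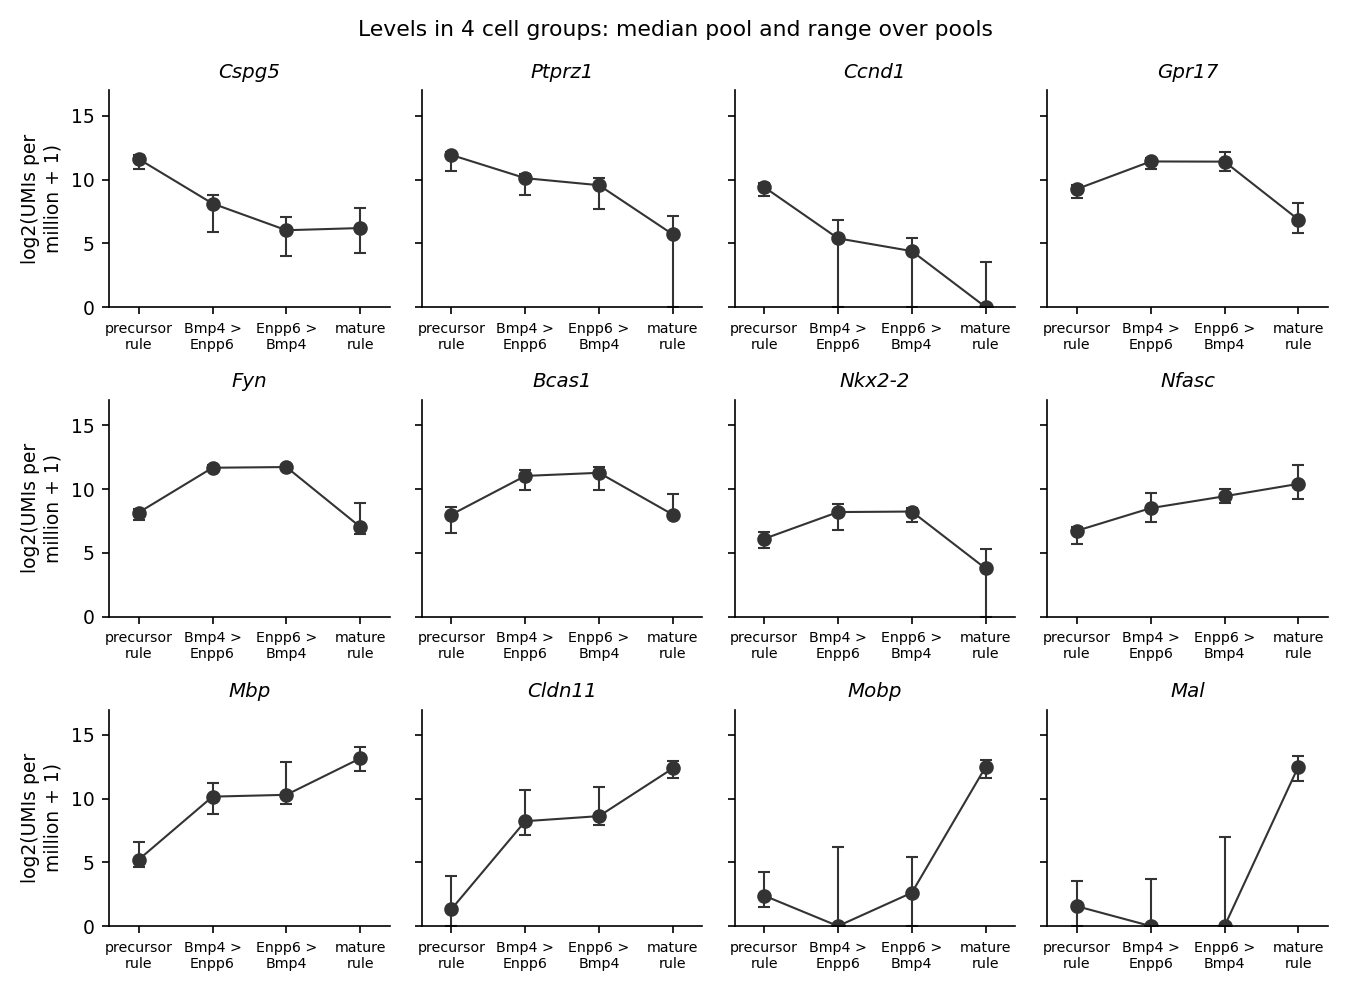
Levels of 12 genes as log2(CPM + 1) in precursor-rule cells, committed precursors with more Bmp4, committed precursors with more Enpp6, and mature-rule cells; points are medians over pools and bars run from the lowest to the highest pool. Mbp climbs over the 4 classes, Gpr17 and Fyn peak in both groups of committed precursors, and Cspg5 is highest in precursor-rule cells.

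Stage by stage, of 15 genes listed for committed precursors, 13 were higher than in precursor-rule cells and 2 lower, with a median of 1.33 against -0.04 over all genes. Gpr17 (chr18:31942997-31949636), the receptor of this stage, stood at 381 to 780.4 (median 615) CPM in precursor-rule cells and at 1761 to 3861 (median 2657) in committed precursors, a change of 2.22 ± 0.07 (SE), adjusted p = 4.5e-23. Every pool of committed precursors was above every pool of precursors. Bcas1, a protein of early myelinating cells, rose by 3.07 ± 0.10 on the log2 scale, the transcription factor Mycl by 3.4 ± 0.12, the tetraspanin Cd9 by 2.22 ± 0.07 and Tmem108 by 2.07 ± 0.12. The sialidase Neu4 (0.92), the matrix protein Tnr (0.91) and Sox6 (0.81) had smaller changes. The 2 lower genes were the proteoglycan Vcan (-0.41) and Gap43 (-1.19), a growth cone protein.

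Of 20 genes listed for newly formed oligodendrocytes, 17 passed the filter on low counts, 16 were higher and 1, the hyaluronidase Tmem2 (-1.74), was lower, with a median of 2.28. Myrf, the membrane-bound factor that switches on myelin genes, rose by 3.17 ± 0.15, Nkx2-2 by 2.28 ± 0.09, the Wnt effector Tcf7l2 by 2.06 ± 0.15, the axo-glial adhesion molecule Nfasc by 2.46 ± 0.14 and the calcium channel Itpr2 by 1.3 ± 0.08. Of 24 genes listed for myelin and mature cells, only 12 passed the filter. Of these, 10 were higher, 1 was lower and 1 did not pass the test. Mbp, myelin basic protein, rose by 5.05 ± 0.17 and Cldn11, the tight junction protein of myelin, by 7.21 ± 0.23. Tubb4a (2.96), Ptgds (3.22) and Cryab (2.61) rose too, and Gsn (-0.72) fell. The other 12, among them Mobp, Mal, Ermn and Opalin, were too low in both classes to be tested. In committed precursors their medians over pools were 5.13, 0, 0 and 0 CPM. Mbp had a median of 1038 CPM there. The listed myelin genes were thus at very different levels in these cells, and those too low to be tested were set apart by the filter itself.

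Of 20 genes listed for precursors, 19 were lower and 1 was higher, with a median of -1.72. Besides Cspg5, Ednrb and Ptprz1, these included Cspg4 (-2.43 ± 0.11) and the glutamate receptor subunit Gria3 (-1.04). The 1 higher gene, the adhesion molecule Dscam, had a change of 0.24 and an adjusted p of 0.0367, and it stood at -0.02 when the rule was applied to cells thinned to 1000 UMIs each.

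Transcription factors of the lineage moved both ways. Of 30 listed, 11 were higher and 16 lower, with a median of -0.32. St18 stood at 0 to 4.31 (median 0) CPM in precursors and at 15 to 60.3 (median 35) in committed precursors, through which it passed the filter, so that its direction was fixed. Sox8 (1.18) and Zeb2 (1.41), a repressor of Notch and BMP effectors, rose beside Myrf, Nkx2-2 and Tcf7l2 above. Among those that fell were Etv1 at -2.80, Prrx1 at -2.31, Hes1 at -2.07 and Hes5 at -1.79. Olig2, shared by the whole lineage, had a change of -0.31.

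The Notch pathway, which holds precursors back from maturing, was lower in 11 and higher in 2 of 16 genes that passed the filter, of 20 listed, with a median of -1.56. The ligands Dll1 (-1.69) and Dll3 (-2.43), the receptor Notch1 (-1.07) and the glial ligand Cntn1 (-2.09) fell. The feedback target Nrarp fell too, with 3 UMIs in all committed precursors and 1111 in all precursor-rule cells. Hey2 (1.27) and the DNA-binding partner Rbpj (0.76) rose. Bmp4 is itself a BMP ligand, and of 28 listed BMP pathway genes 17 passed the filter, 4 were higher and 7 lower, with a median of -0.36. The ligand Bmp7 (-2.20), the decoy receptor Bambi (-2.25) and the receptor Bmpr1a (-0.62) fell. The signal carrier Smad1 (0.70) and the inhibitor Smad7 (0.58) rose, and the BMP target genes split, with Id3 at 0.97 and Id2 at -1.44. Of 25 listed Wnt pathway genes 12 passed the filter, 2 were higher and 5 lower, with a median of -0.24. Besides Tcf7l2, Ctnnb1, which encodes beta-catenin, was higher by 0.31, and the inhibitor Nkd1 (-1.36) was lower. In either direction 11 of the 17 BMP genes and 7 of the 12 Wnt genes passed, beside 51.2% of all genes.

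Cell cycle genes were described in lists for mitosis, replication and exit. All 15 mitosis genes that passed the filter, of 20 listed, were lower, with a median of -4.88. The committed precursors held 71 UMIs of these 15 genes in all, the precursor-rule cells 12675, and 8 of the 15 had 3 UMIs or fewer in committed precursors, so that their fitted changes depend on the prior count added by the tool. Top2a, a topoisomerase, Mki67, the Ki-67 antigen, and Cenpf, a centromere protein, had 5, 3 and 2 UMIs in committed precursors. They had medians of 0, 0 and 0 CPM in committed precursors, against 106, 60.3 and 74.2 in precursor-rule cells. These genes passed the filter through the precursors, where they are high. Of 20 replication genes 6 passed the filter, 4 of these were lower, and Pclaf (-4.17), a clamp-binding protein, was among them. Among genes that brake or drive the cycle, the inhibitor Cdkn1c rose by 1.59 ± 0.12, and the D-type cyclins Ccnd2 (-1.82) and Ccnd3 (-1.80) fell with Ccnd1.

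The same was read cell by cell after every cell was thinned to 1000 UMIs, since the classes differ in depth. UMIs of at least 2 listed cell cycle genes were found in 8 of 614 committed precursors, or 1.3% (95% Wilson interval 0.662 to 2.55), and in 511 of 6599 precursor-rule cells, or 7.74% (7.12 to 8.41). Over pools the shares ran from 0 to 4.11% and from 4.06 to 17.9%. The share was lower in committed precursors in 12 of 12 pools, with a mean difference of -7.56 percentage points (exact sign-flip permutation test over 12 pools, two-sided, p = 0.000488, the smallest this design can give). Mature-rule cells stood at 1.07%, and microglia, picked by at least 3 of their markers and no UMI of Snap25, at 2.64%. Microglia differed by region, at 1.92% in the motor cortex and 3.94% in the dorsal striatum. They are not taken as a background for these genes. After thinning, the share in committed precursors was near that of mature-rule cells. Without thinning the share was 8.31% in committed precursors, 13.6% in mature-rule cells, 15.1% in precursors and 8.59% in microglia, so that this likeness was seen only at equal depth. Intervals cover counting error only.

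**Figure D2:**
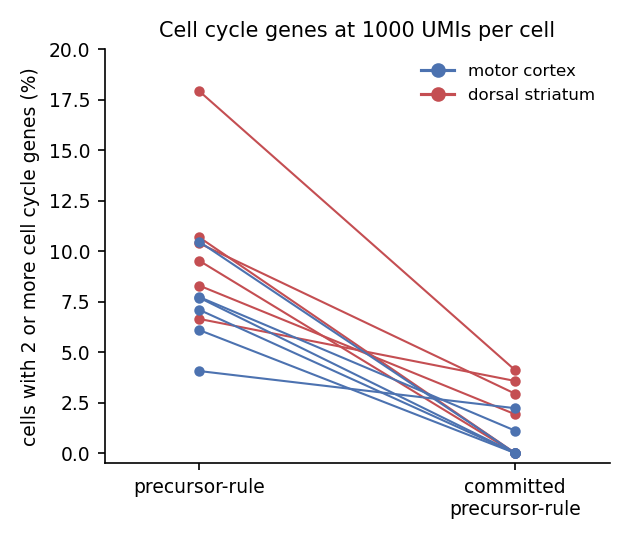
Share of cells with UMIs of at least 2 cell cycle genes after thinning, in percent, for committed precursors and precursor-rule cells of each of the 12 pools, with a line joining the same pool. The committed precursors lie below the precursors in every pool, at 0 to 4.11% against 4.06 to 17.9%.

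Genes that shape cell processes split. Of 30 listed genes of outgrowth and the cytoskeleton 29 passed the filter, 17 were higher and 9 lower. Tuba1a (2.14 ± 0.06), Tubb2b (1.69), the microtubule protein Map1b (2.20), the actin-binding peptide Tmsb4x (2.12), Rac1 (1.02) and Wasf1 (1.52), which activates actin branching, rose. The microtubule proteins Dcx (-2.52) and Stmn1 (-1.82) fell. Cholesterol synthesis supplies the membrane of myelin. Of 22 listed genes 21 passed the filter, none was higher and 12 were lower, with a median of -0.45, among them Msmo1 (-1.05).

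Neurotransmitter receptors were lower in 18 of 21 genes that passed the filter (25 listed, median -1.20), with the adenosine receptor Adora1 at -3.84 ± 0.20 and the NMDA receptor subunit Grin3a at -1.32, and 3 did not pass the test. All 18 immediate early genes that passed the filter, of 19, were lower (median -1.79), among them Fos (-2.54), Egr1 (-2.64) and Jun (-1.60). Of 16 heat shock and dissociation genes, 5 were higher, such as Hspe1 (1.37) and Hspa8 (0.51), and 4 lower, beside 23.1% and 28.1% of all genes. These counts are near the shares of genes in general. Markers of other cell types moved with the class. Of 8 neuron markers 7 were lower, such as Snap25 (-1.26) and Meg3 (-1.80), of 5 astrocyte markers that passed the filter (8 listed) 4 were lower, with Slc1a2 at -2.53, and of 8 microglia markers 5 were lower. At least 3 markers of another type were found in 13.4% of committed precursors and in 38.0% of precursor-rule cells. Some of these markers were widely detected in precursor-rule cells, with Meg3 in 85.0%, Slc1a2 in 69.8% and Slc1a3 in 58.2%. Others were rare there, with Gja1 in 1.26% and Gfap in 0.227%. Having 3 markers thus need not mean a mixed cell. Called doublets were 6.51% of committed precursors and 7.32% of precursor-rule cells. The part of cells with 3 such markers in the receptor and immediate early gene values was not tested. Without such cells in either class, 3803 genes passed.

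**Figure D3:**
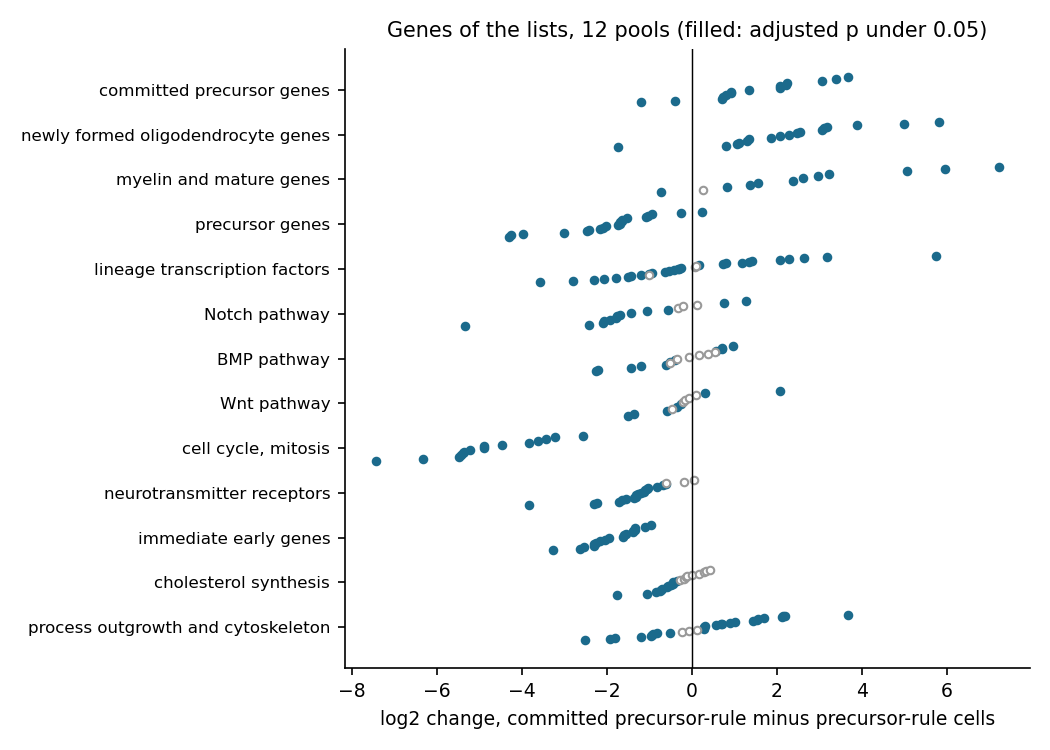
Log2 change of each tested gene of described lists, committed precursors against precursor-rule cells. Each point is a gene, filled at an adjusted p under 0.05 and open otherwise, and a vertical line marks 0. All mitosis genes and all but 1 precursor gene lie below 0, most committed, newly formed and myelin genes above it, and transcription factors on both sides.

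Committed precursors were then compared with mature-rule cells in the 9 pools with at least 10 cells of each (463 and 359 cells). Levels of committed precursors beside them are over all 12 pools. Of 5571 genes tested 49.3% passed, 1439 higher (25.8%) and 1307 lower (23.5%), with a median of 0.08 over all genes. Most listed myelin genes were far lower in committed precursors, genes of the committed and precursor stages were mostly higher, and newly formed genes divided. Mobp, a protein of compact myelin, stood at 3196 to 8469.6 (median 5774) CPM in mature-rule cells and at 0 to 39.9 (median 5.13) in committed precursors, a change of -9.28 ± 0.28 (SE), adjusted p = 2.3e-15. Mal, a myelin lipid raft protein, stood at 2739 to 10291 (median 5890.2) and 0 to 39.9 (median 0), a change of -9.99 ± 0.33 (SE), adjusted p = 6.1e-15. These pools were apart by more than an order of magnitude.

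All but 1 of the 24 myelin genes were lower, with a median of -7.34. The 12 of them that were too low to be tested against precursors passed the filter here through the mature-rule cells, so a lower value was fixed for these. Fitted changes of genes near 0 depend on the prior count added by the tool. With the 4 genes that had no UMI in committed precursors set to the bound that 3 UMIs over the class allow, the median was -6.46. Myelin genes already present in committed precursors were lower by less than that median, with Mbp at -2.87 ± 0.22 and Cnp, from the newly formed list, at -1.75 ± 0.14. Mbp ran from 4577 to 17177 (median 9172) CPM in mature-rule cells and from 629.9 to 5857 (median 1038) in committed precursors. The other named lower genes were the carbonic anhydrase Car2 (-8.57), Pdlim2 (-8.29), transferrin (Trf, -7.72), Opalin (-8.99), Tppp3 (-6.25), the ferritin heavy chain Fth1 (-4.58) and Aplp1 (-4.00), and the actin-binding Ermn, which had 1 UMI in all committed precursors and 1751 in all mature-rule cells. Cholesterol synthesis was lower in 18 of 20 genes that passed the filter, with a median of -1.73, as with Hmgcs1 (-2.55 ± 0.23) and Msmo1 (-1.95).

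Gpr17 stood at 55.2 to 289 (median 116) CPM in mature-rule cells, a change of 3.91 ± 0.21 (SE), adjusted p = 6.0e-12 in committed precursors. Fyn stood at 86.8 to 471 (median 131), a change of 3.99 ± 0.22 (SE), adjusted p = 6.4e-12. Both were therefore higher in committed precursors than on either side, with no overlap of pools. The other named higher genes were Mycl (6.58), the protease inhibitor Timp4 (4.95), Tmem108 (3.36), Vcan (5.56), Lhfpl3 (5.04), Ppfibp1 (5.81), profilin Pfn2 (2.49) and the phosphatase Ptpre (3.57). Of the committed precursor list 13 of 15 were higher and 1, the kinesin Kif21a (-2.05), lower (median 3.91). Genes low in mature-rule cells likewise passed the filter through the committed precursors. All 16 precursor genes that passed it, of 20, were higher (median 3.66), with Cspg4 at 218 UMIs in all committed precursors and 3 in all mature-rule cells, and Ptprz1 higher by 3.50. For genes this low in mature-rule cells the direction was fixed by the filter.

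Newly formed genes divided, with 8 higher and 10 lower of 19 that passed the filter (20 listed, median -1.03). Nkx2-2 (3.67 ± 0.23), Itpr2 (3.42), Tcf7l2 (1.54) and Sirt2 (0.55) were higher and Myrf (-1.03 ± 0.15), Nfasc (-1.81) and Cnp lower. Among lineage transcription factors 11 were higher and 6 lower of 26 that passed the filter (30 listed), with Sox6 at 5.0, St18 at -1.51 and Nkx6-2 at -4.58. The Notch effector Hey2 was higher, with 111 UMIs in all committed precursors and 1 in all mature-rule cells, and the BMP inhibitor Smad7 was lower (-3.13). Of the cytoskeleton list 15 were higher and 4 lower of 28 (30 listed), with Tubb2b at 3.64 and Stmn1 at -4.41. None of 7 neuron markers that passed the filter (8 listed) passed the test here.

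Among the committed precursors, those with Enpp6 were set against those with Bmp4. With at least 2 UMIs of one and none of the other, only 2 pools held 10 cells of each (37 and 25 cells), which left 1 residual degree of freedom. Of 756 genes 0.529% passed, 0.265% in each direction, with 55 at an unadjusted p under 0.05. In the Enpp6 cells Mbp (2.34) and 9630013A20Rik (2.18) were higher and Ptprz1 (-1.65) and Rgcc (-1.69), a regulator of the cell cycle, were lower. No gene passed with DESeq2's size factors, and 1 passed in DESeq2.

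A split that keeps more cells was added after these data were seen. It set the 267 cells with more Enpp6 than Bmp4 (43.5%, median 3381 UMIs) against the 259 with more Bmp4 (42.2%, 3125 UMIs), and left out 88 with equal counts. The share with more Enpp6 ran from 28.6 to 64.3% over pools. In the 10 pools with at least 10 cells of each (250 and 243 cells), 1.58% of 2906 genes passed, 32 higher (1.1%) and 14 lower (0.482%), with 333 at an unadjusted p under 0.05. Where listed genes passed, those of the newly formed and myelin lists were higher in cells with more Enpp6 and those of the precursor list lower, and most genes of these lists did not pass. Gpr17 and Fyn did not pass either.

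Levels below are over all pools with at least 10 cells of the group, 11 for more Bmp4 and 10 for more Enpp6, and changes are from the 10 shared pools. Nfasc stood at 166 to 817 (median 364) CPM in cells with more Bmp4 and at 495 to 1007 (median 695) in cells with more Enpp6, a change of 0.93 ± 0.14 (SE), adjusted p = 2.6e-05. The ranges overlapped. Cspg5 stood at 60.0 to 442 (median 278) and 14.7 to 133 (median 64.4), a change of -1.89 ± 0.20 (SE), adjusted p = 1.9e-09. Rgcc stood at 398 to 1136 (median 767) and 295 to 693 (median 399), a change of -0.97 ± 0.12 (SE), adjusted p = 4.4e-07. The ranges again overlapped, and the naming rule required 1 direction in every pool.

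The other named higher genes in cells with more Enpp6 were Cnp (0.49 ± 0.09), Chn2 (0.55), the sterol-binding Osbpl1a (0.90), Tubb4a (0.57), Sirt2 (0.39), the elongation factor Eef1a1 (0.37), Tmem108 (0.65) and Srcin1 (0.78), an inhibitor of Src kinases. Mbp (0.89 ± 0.16) and Cldn11 (0.58) passed as well. The other named lower genes were Ptn (-0.71), Pcsk1n (-0.40) and Gpm6a (-0.59), and Ptprz1 (-0.55 ± 0.12), the receptor of Ptn, passed too. Of 15 newly formed genes that passed the filter 6 were higher (median 0.39), of 11 myelin genes 4 were higher (median 0.50), and of 14 precursor genes 3 were lower (median -0.29), against 0.01 over all genes. No lineage transcription factor of 20 passed. Of 12 committed precursor genes 1 was higher. Gpr17 (0.01 ± 0.09) and Fyn (0.05 ± 0.07) did not pass the test. Without dorsal striatum early replicate 1, motor cortex late replicate 1 or motor cortex control replicate 2 the number of genes that passed was 28, 29 and 30 in place of 46. With DESeq2 it was 17 and with the stricter cell filter 26. It was 82 without cells with markers of another type, 86 without doublets and 154 with the rule after thinning.

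How many committed precursors there were was read as their share of the 3 lineage classes in each pool. In the dorsal striatum, the 2 control pools stood at 10.3% (34 of 330 cells, 95% Wilson interval 7.47 to 14.1) and 8.59% (6.01 to 12.1). The 2 early pools stood at 10.1% (7.53 to 13.4) and 8.59% (6.52 to 11.2), and the 2 late pools at 25.3% (20.7 to 30.7) and 7.44% (5.72 to 9.63). A single pool, late replicate 1, stood far above the other 5. It had the fewest lineage cells, 288 against 326 to 699, and the most passing cells, 11695 against 6151 to 9270. Of passing cells, its 73 committed precursors were 0.624%, against 0.36 to 0.563% in the other 5. Its precursor-rule cells had medians of 1390 and 1223.5 UMIs in the contralateral and ipsilateral libraries. The part of these differences in the share was not tested. In the motor cortex, the control pools stood at 7.25% (4.37 to 11.8) and 5.53% (4.13 to 7.37), the early pools at 4.76% (3.58 to 6.31) and 9.26% (7.59 to 11.2), and the late pools at 7.43% (6.15 to 8.96) and 6.19% (4.69 to 8.14). The stages overlapped in both regions.

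**Figure D4:**
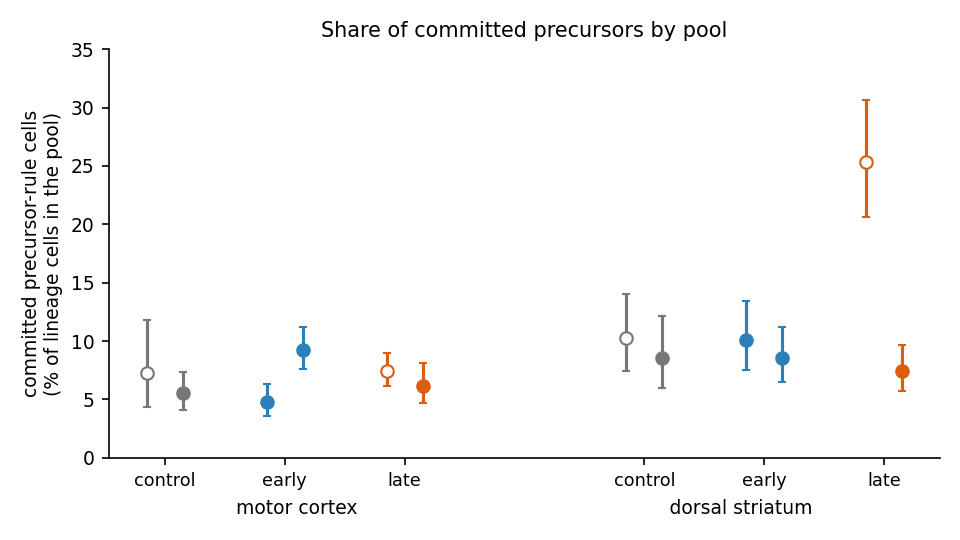
Committed precursors as a percentage of the 3 lineage classes in each pool, by region and stage, with 95% Wilson intervals; open symbols are library class A and filled symbols class B. Dorsal striatum late replicate 1 lies at 25.3% and the other 11 pools between 4.76 and 10.3%.

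By region, the share was 11.7 ± 6.76% in the dorsal striatum and 6.74 ± 1.60% in the motor cortex (SD, n = 6 pools each), with medians of 9.35% and 6.72%. The difference of 4.99 percentage points had p = 0.0173 in an exact permutation test over pools (two-sided, smallest possible 0.00216), and the regions overlapped. Without dorsal striatum late replicate 1 the difference was 2.27 points (exact permutation p = 0.0390). Without motor cortex control replicate 2, early replicate 1 or late replicate 2 it was 4.75, 4.59 and 4.88 points with exact permutation p = 0.0584, 0.0693 and 0.0563. With the stricter cell filter it was 7.39 points (exact permutation p = 0.229). Counted among all passing cells in place of the lineage, the difference was -0.131 points (exact permutation p = 0.310), and so the direction depended on the denominator. Within library class A the means were 17.8% and 7.34%, and within class B 8.68% and 6.44%. The labels name 6 batches of 2 pools each, and 2 of them hold both regions. In these the shares were 8.59% in the dorsal striatum and 9.26% in the motor cortex of the early pools, and 7.44% and 6.19% in the late pools. The regional difference was thus not in 1 direction within batches. Region and driver line cannot be told apart.

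By stage, early pools differed from controls by 0.258 points as the mean of both regions (exact permutation p = 0.889, 12 pools), late pools from controls by 3.68 points (exact permutation p = 0.722) and late from early pools by 3.43 points (exact permutation p = 0.722). The smallest p this design allows is 0.0556, and all 9 stage comparisons had an adjusted p of 1. Counted among all passing cells, late pools stood 0.191 points above controls (exact permutation p = 0.0556, 12 pools, the smallest possible and not adjusted). In the dorsal striatum the late pools stood at 0.624 and 0.563% of passing cells and the controls at 0.553 and 0.36%. In the motor cortex they stood at 0.718 and 0.598% and at 0.283 and 0.542%, so that both late pools lay above both controls in each region on this denominator. Without dorsal striatum late replicate 1, late minus control became -0.794 points and late minus early -1.05 points. Early minus control also turned, to -0.171, -0.119, -0.172 and -0.866 points, without dorsal striatum control replicate 2, dorsal striatum early replicate 1, motor cortex control replicate 2 or motor cortex early replicate 2. These comparisons share pools. Within the 4 batches that hold 2 stages of a region, the late pool stood at 25.3% against 10.3% in its control in the dorsal striatum and at 7.43% against 7.25% in the motor cortex, and the early pool at 10.1% against 8.59% and at 4.76% against 5.53%.

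The hemispheres of the 8 trained pools were compared because the reach uses 1 forelimb. Contralateral minus ipsilateral was -2.52 points (exact sign-flip permutation test, two-sided, p = 0.492, smallest possible 0.00781). With 1 pool left out it ran from -3.37 to -0.045 points. In dorsal striatum late replicate 1 the contralateral library held 23 of 147 lineage cells (15.6%) and the ipsilateral one 50 of 141 (35.5%). In motor cortex early replicate 2 they held 6.70% and 12.2%. The other 6 pools differed by between -1.50 and 3.46 points.

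Genes were compared between committed precursors of the 2 regions over 12 pools, with library class as a covariate. Of 5131 genes 0.292% passed, 5 higher in the dorsal striatum (0.0974%) and 10 lower (0.195%), with 443 at an unadjusted p under 0.05 and 6 calls in DESeq2. Among them are Mef2c, Cck, Slc17a7, Snap25, Sncb, Cplx3, Ttc9b and Penk, which are known from neurons. Mef2c, a transcription factor of cortical neurons and of microglia, stood at 44.9 to 434 (median 84.8) CPM in the motor cortex and at 0 to 36.3 (median 2.51) in the dorsal striatum, a change of -4.37 ± 0.58 (SE), adjusted p = 0.000786. The naming rule required that the regions did not overlap. Mef2c, Cck, Slc17a7 and Sncb, all low in the dorsal striatum, passed the filter through the motor cortex, which fixed their direction. A single cell held 16 of the 21 Mef2c UMIs of motor cortex control replicate 1, 18 of the 28 of early replicate 1 and 5 of the 6 of late replicate 2. In control replicate 2 and early replicate 2 a single cell held 4 of the 8 and 6 of the 14. Without the cell with the most UMIs, control replicate 2, early replicate 2 and late replicate 2 fall within the range of the dorsal striatum. Slc17a7, the vesicular glutamate transporter of cortical excitatory neurons, stood at 15 to 186 (median 35.6) and 0 to 5.84 (median 0), and 41 of its 81 UMIs lay in 1 cell. The neuropeptide Cck stood at 37.4 to 709.5 (median 99.7) in the motor cortex and at 0 in all 6 pools of the dorsal striatum, with 175 of 276 UMIs in 1 cell. Slc1a2, the glial glutamate transporter, stood at 67.4 to 287 (median 157) and 12.1 to 65.3 (median 33.8). A single cell held 57 of the 72 Slc1a2 UMIs of motor cortex early replicate 1 and 7 of the 8 of control replicate 1, and without the cell with the most UMIs these pools, early replicate 2 and late replicate 2 fall within the range of the dorsal striatum. The other 6 lower genes were the synaptic genes Snap25, Sncb, Cplx3 and Ttc9b, the glial matrix protein Sparcl1, and Slc27a3.

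The genes higher in the dorsal striatum included Penk, which marks striatal neurons, 9630013A20Rik, the matrix protein Sparc and Pdcd4. Penk stood at 0 to 5.84 CPM (median 0) in the motor cortex and at 0 to 491 (median 80.3) in the dorsal striatum. It passed the filter through the dorsal striatum, which fixed its direction. A single cell held 48 of the 83 Penk UMIs of dorsal striatum late replicate 1 and 32 of the 39 of control replicate 2. Sparc stood at 59.9 to 134 (median 78.6) CPM in the motor cortex and at 112 to 291 (median 235) in the dorsal striatum, a change of 1.23. In the pools of library class A the regions were not apart, with Sparc at 82.6 and 134 CPM in the motor cortex and at 120 and 112 in the dorsal striatum. 9630013A20Rik, named above as higher in committed precursors than in precursor-rule cells, stood at 135 to 516 (median 217) and 276 to 863 (median 386), a change of 0.82. The ranges of both genes overlapped between regions. Mbp (0.57), Gpr17 (-0.09) and Fyn (0.01) did not pass the test, and neither did any of the 15 committed precursor genes.

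Of 7 neuron markers that passed the filter (8 listed), 2 were lower in the dorsal striatum in the same cells, and the median change of the 7 was -1.66. The summed level of the neuron markers ran from 671 to 3986 CPM in the motor cortex (median 1793) and from 296 to 1879 in the dorsal striatum (median 572). These ranges overlapped, and the sum was not tested. The astrocyte markers ran from 165 to 421 and from 90.7 to 201. Their part in the regional differences was not tested. Without cells that carry at least 3 markers of another type 10 genes passed. No gene passed without library class as a covariate, and 7 passed with the 6 batches in its place, Mef2c, Sparc and Sncb among them. The count was 35 without motor cortex early replicate 2. It was 2 without motor cortex late replicate 1, 3 without control replicate 2, 5 without late replicate 2, 8 without control replicate 1 and 9 without early replicate 1 of that region. Without the dorsal striatum early replicates it was 4 and 8, and without its late replicate 1 it was 6. In the 2 batches that hold both regions, Mef2c stood at 58.0 in the motor cortex and 0 in the dorsal striatum (early) and at 44.9 and 5.02 (late), and Sparc at 74.6 and 239 and at 59.9 and 291 CPM. The pools of these 2 batches are all of library class B.

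**Figure D5:**
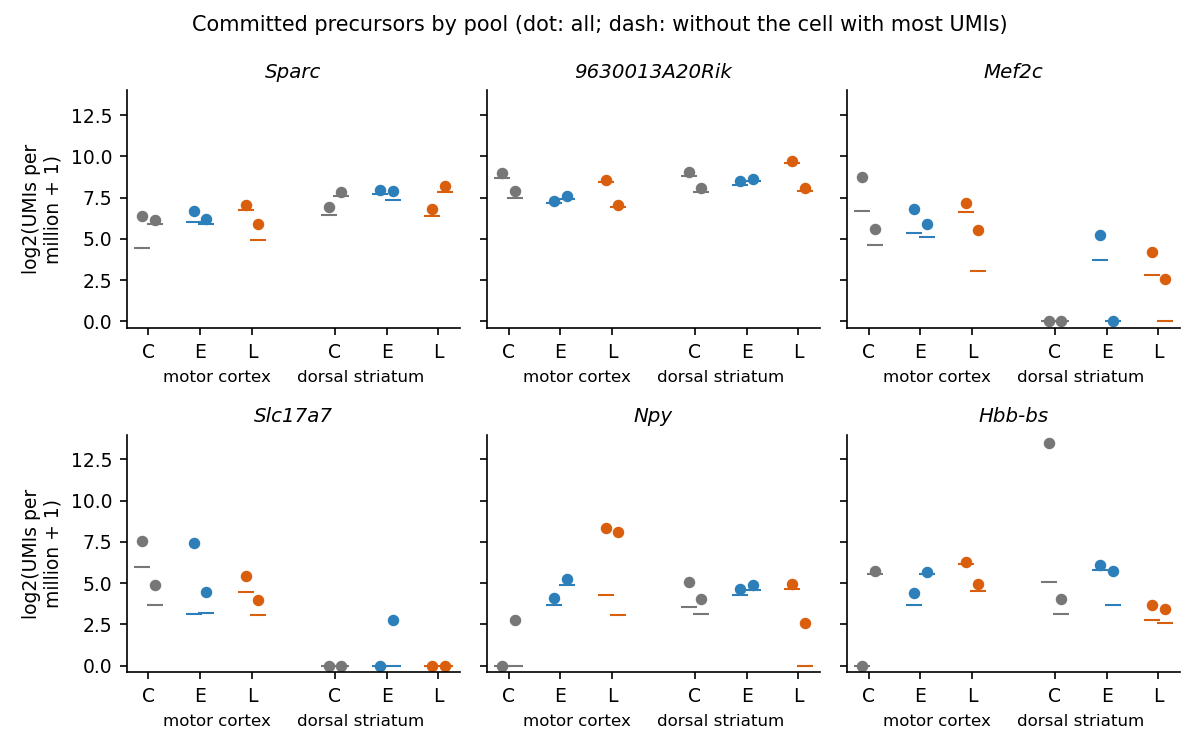
Level in committed precursors of Sparc, 9630013A20Rik, Mef2c, Slc17a7, Npy and Hbb-bs as log2(CPM + 1) for each of the 12 pools, ordered by region and stage (C control, E early, L late); dots use all cells and dashes leave out the cell with the most UMIs of that gene. Sparc changes little without that cell in most pools, whereas Mef2c in 3 motor cortex pools, Npy in the motor cortex late pools and Hbb-bs in 1 dorsal striatum control pool drop.

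The stages were compared in the same fit, and the comparisons share pools. Few genes passed. As the mean of both regions, 0.039% of 5131 genes passed for early against control, namely mt-Rnr1 (1.93 ± 0.30, SE) and CT010467.1 (2.71), and 205 had an unadjusted p under 0.05. Without motor cortex control replicate 2 they stood at 0.33 and 0.36 and did not pass, and with any 1 pool left out mt-Rnr1 reached at most 2.14 and CT010467.1 at most 4.02. For late against control 0.039% passed, namely Gm42418 and mt-Rnr1 (219 unadjusted), and without motor cortex control replicate 2 they stood at 0.85 and 0.34 and did not pass. mt-Rnr1 is a mitochondrial ribosomal RNA and CT010467.1 is annotated as ribosomal RNA, and Gm42418, annotated as a lincRNA, overlaps CT010467.1 on the opposite strand. mt-Rnr1 stood at 43.5 to 82.6 CPM in the 4 pools of library class A and at 304 to 5064 in the 8 pools of class B. For late against early no gene passed (151 unadjusted).

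Within the motor cortex, 0.078% passed for late against control, namely mt-Rnr1, Gm42418, CT010467.1 and Npy (202 unadjusted). Without motor cortex control replicate 2 the first 3 stood at 0.32, 0.69 and -0.88 and did not pass. A single gene, Npy, passed for late against early (0.0195%, 177 unadjusted). Npy, a neuropeptide of interneurons, stood at 0 and 5.84 CPM in the control pools, at 15.9 and 37.3 in the early pools and at 320.02 and 269 in the late pools. The change from control was 5.74 ± 0.71 (SE), adjusted p = 0.000183 in edgeR. Being low in the other pools, the gene passed the filter through the late pools, which fixed the direction, and 115 of the 122 Npy UMIs of late replicate 1 lay in 1 cell, as did 35 of the 36 of late replicate 2. Within the dorsal striatum, 1 gene passed for late against control (0.0195%, 195 unadjusted) and 1 for late against early (285 unadjusted). The first was the haemoglobin gene Hbb-bs (-8.41), of whose 1131 UMIs 1043 lay in 1 cell of control replicate 1. The second was Ptgds (2.43), the prostaglandin synthase of mature oligodendrocytes and meninges, at 90.7 and 70.1 CPM in the early and at 485 and 382 in the late pools. The 2 control pools stood at 207 and 254, and 29 of the 33 Ptgds UMIs of control replicate 2 lay in 1 cell, as did 34 of the 76 of late replicate 2. Early against control gave no gene in the motor cortex (213 unadjusted) or in the dorsal striatum (281 unadjusted).

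DESeq2 gave 1 call over the 9 stage comparisons, where edgeR gave 11. Without library class as a covariate edgeR gave 2, and without doublets or without cells with markers of another type 26. The batches in place of library class gave 51, with 1 residual degree of freedom, and Npy and Ptgds were still called for late against control in the motor cortex and for late against early in the dorsal striatum. Leaving out motor cortex early replicate 2, motor cortex control replicate 1, dorsal striatum control replicate 2 or motor cortex early replicate 1 gave 37, 25, 20 and 19 calls, and leaving out motor cortex late replicate 2 gave 5. No gene passed for a stage change that differed between regions (307 unadjusted for early and 198 for late against control, 0 in DESeq2), and none for the contralateral against the ipsilateral hemisphere in 8 pools (0 of 3485, 142 unadjusted, 0 in DESeq2). With 1 pool left out, the first of these counts rose to 7 without dorsal striatum control replicate 2, to 3 and 2 without motor cortex control replicate 2 and 1, and to 1 without dorsal striatum late replicate 1. The second rose to 1 to 3 without any 1 of 7 pools, and to 3 without dorsal striatum late replicate 2.

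Reporter mRNA was read in the same cells. After thinning, 25 of 614 committed precursors (4.07%) had a UMI of tdTomato or of the WPRE element of the reporter, against 3.29% of microglia, which should lack it and show the background of free RNA, and 6.52% of precursor-rule cells. Because these microglia were picked without a UMI of Snap25, cells with much free neuronal RNA may be missing among them. Committed precursors and microglia differed by 1.06 points (exact sign-flip permutation test over 12 pools, two-sided, p = 0.222). Without thinning the shares were 10.9% and 6.77%, with median depths of 3114 and 1838 UMIs, and differed by 4.32 points (exact permutation p = 0.00342). With at least 2 UMIs required after thinning the difference was -0.0375 points. A reporter share above the background was not detectable at equal depth.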

How the data were processed

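Single cells of mouse motor cortex and dorsal striatum were profiled by droplet sequencing with 10x 3′ kits. The deposited matrices hold raw UMI counts per gene and cell, made by the authors with Cell Ranger 3.1.0 against GRCm38 (mm10), per the submitters' processing notes. Steps against ambient RNA or doublets are not given in the sources used here. The cells, gene lists and comparisons were chosen with earlier results of these data known. Gene lists were described by counts and medians, and 401 of 402 listed genes were found.

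Counts were summed over the cells of a class in a pool, a pool entering with at least 10 cells of each class. edgeR 4.0.16 in R 4.3.3 (quasi-likelihood, TMM, filterByExpr) gave log2 changes and p-values with Benjamini-Hochberg adjustment, at a threshold of 0.05. Shares were compared by exact permutation over pools. The p-values rest on variation between pools, and in paired comparisons on how the difference within a pool varies from pool to pool. Named genes were up to 10 higher and 10 lower with the smallest adjusted p and the same direction in every pool, or, unpaired, without overlap. The 7 rule genes, Xist, Tsix and Y-linked genes were left out, and a few genes that these rules or lists chose are not reported here. Doublets were scored with Scrublet in scanpy 1.11.5 (top 0.8% per 1000 barcodes) and kept. Library class was read from shared barcodes. Alternatives were DESeq2 1.42.0, its size factors, no filter on low counts, doublets removed, a stricter cell filter (2000 UMIs, 1000 genes, 10% mitochondrial), the rule after thinning to 1000 UMIs, cells without markers of another type, other covariates and each pool left out. The split by the larger of Bmp4 and Enpp6, the term for class by region, the fit without ribosomal features and the batch covariate were chosen after seeing the data. The scripts were tested on simulated counts.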

Additional observations from a re-analysis of the deposited data

Results flagged for a closer look

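Of 43 groups of 6 pools looked at, 5 had a single pool far from the other 5, and chance sets a pool apart in about 1 group in 20. In the dorsal striatum, the share of committed precursors in the lineage was 25.3% in late replicate 1. There, Hbb-bs stood at 11369.8 CPM in control replicate 1, Slc17a7 at 5.84 in its highest pool (1 UMI in 1 cell, and none in the other 5) and Sncb at 53.2 in its highest pool. In the motor cortex, Mef2c stood at 434 CPM in the highest pool.

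The change from precursor-rule cells to committed precursors differed between the dorsal striatum and the motor cortex in 6 of 9041 genes in a test added after the data were seen (0.0664%, edgeR adjusted p under 0.05, 535 at an unadjusted p under 0.05). In log2 units, dorsal striatum minus motor cortex, the differences were 9.09 for Hbb-bt, 9.10 for Hba-a1, 8.19 for Hba-a2 and 6.86 for Hbb-bs. They were -2.33 for Slc1a2 and -1.97 for Mt2. Of the UMIs of each of the 4 haemoglobin genes in committed precursors, at least 92% lay in 1 cell of dorsal striatum control replicate 1.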

How the results depend on the processing

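Of 94 named genes that passed against precursor-rule cells, 1854 of 1872 values under the alternatives kept direction and side of the threshold, 17 lost the call and 1 turned, Dscam (-0.0175 with the rule after thinning). Against mature-rule cells 796 of 797 did. Calls were lost in 142 of 295 values for 14 regional genes, each at least once, in 88 of 460 for the split by the larger count (15 of 26 genes) and in 9 of 19 for Enpp6-only against Bmp4-only cells. The counts of genes that passed ran from 3803 to 5777 and from 2297 to 3311, and with 1 pool left out from 4152 to 4897 and from 2321 to 2671. DESeq2's size factors moved the median over all genes against precursors from -0.04 to -0.109.

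Enpp6-only against Bmp4-only cells gave 0 calls with DESeq2's size factors, 7 with no filter and 1 with DESeq2, and no pool could be left out. The split by the larger count gave 17 calls with DESeq2, 26 with the stricter cell filter, 82 without cells with markers of another type, 86 without doublets and 154 with the rule after thinning, and 28 to 44 with 1 pool left out. There Gpr17 turned to -0.00330 with DESeq2's size factors, -0.00101 with DESeq2, -0.0829 with the stricter filter, -0.00742 without cells with markers of another type, -0.310 with the rule after thinning and between -0.041 and 0.0519 with 1 pool left out, and Fyn to -0.00731 with the stricter filter and -0.102 with the rule after thinning.

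The regional count of 15 became 73 with no filter, 6 with DESeq2, 0 with no library class covariate, 7 with the batch label and 2 to 35 with 1 pool left out. The 11 stage calls became 100 with no filter, 1 with DESeq2, 26 both without doublets and without cells with markers of another type, 2 with no library class covariate, 51 with the batch label, 4 without ribosomal features and 5 to 37 with 1 pool left out. The count for region by stage became 15 with no filter, 4 without doublets, 3 without cells with markers of another type, 7 with the batch label and 0 to 7 with 1 pool left out. The hemisphere count became 25 with no filter, 1 both without doublets and without cells with markers of another type, and 0 to 3 with 1 pool left out. For late against control in the motor cortex CT010467.1 turned to -0.221 with the batch label and ran from -0.882 to 4.16 with 1 pool left out.

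The share by region was -0.131 points among all passing cells, 7.39 (p = 0.229, exact permutation) with the stricter filter and 2.27 to 5.85 with 1 pool left out. Late minus early was -0.0358 among all passing cells and -1.36 in class B, late minus control -0.246 in class B, and early minus control -0.713 with the rule after thinning and -1.07 with the stricter filter. With 1 pool left out, early minus control ran from -0.866 to 1.38, late minus control from -0.794 to 8.16 and late minus early from -1.05 to 7.90 points. The reporter difference was 4.32 unthinned and -0.0375 with 2 UMIs required, and 0.682 to 1.41 with 1 pool left out. In these results the cause was not tested unless fewer samples or genes made the change.

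Replicate numbers are accession order and do not pair pools. Deviations of same-numbered pools correlated between -0.0477 and 0.577. With 2 pools per group, the values of replicate 2 repeat those of replicate 1. The highest values, 0.577 in the dorsal striatum and 0.473 in the motor cortex, were for control and late pools. Replicate 1 of these is of library class A and shares a batch within each region. A replicate block gave 8 regional and 14 stage calls, and the paired comparisons without the replicate block gave 4408, 2794 and 35 calls against precursors, mature cells and in the split by the larger count. Depth limits the shares, with 14 to 100 committed precursors per pool.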
